A study of Homo sapiens with 6 samples.

Results

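The endoplasmic reticulum (ER) protein folding and ER-associated degradation genes were a set of 49 genes, picked by gene symbol from a table of 58735 genes. They were followed in Huh7, a long-established line from a human hepatocellular carcinoma, in 2 groups of 3 RNA-seq libraries each. One group carried a short hairpin RNA against ITGB5 (shITGB5), the gene of the integrin beta-5 chain, and the other a control hairpin (shcontrol). All cells were grown in RPMI-1640 with fetal bovine serum, total RNA was taken, and libraries were made with a directional kit. The hairpin sequences, their number and the time after their delivery were not given in the sources used here, and both groups carry a hairpin, so no cells without one were compared. Separate cultures are not named in the labels, so each p-value reflects how far these libraries differ from one another, and that spread may be technical. Reads from bulk cells cannot tell fewer cells of a kind apart from less RNA per cell.

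Secreted and membrane proteins enter the ER through the Sec61 channel, receive N-linked glycans, and fold with the help of lectin chaperones, Hsp70-type chaperones and disulfide-forming enzymes. Glucosidases trim the glycan so that calnexin and calreticulin can bind, and proteins that fail to fold are sent back across the membrane to the proteasome, which is ER-associated degradation. Unfolded protein in the ER is sensed by IRE1 (gene ERN1), ATF6 and PERK. IRE1 splices the XBP1 mRNA, ATF6 is cut by the site-1 and site-2 proteases (MBTPS1, MBTPS2), and the factors released act on stress elements in the promoters of folding genes. Liver cells secrete large amounts of plasma protein and depend on this machinery.

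The libraries held 15777922 to 18011313 counts. ITGB5 was lower in the hairpin libraries, at 176 ± 4.30 against 212 ± 6.35 CPM (counts per 1000000 of the library total; mean ± SD, n = 3 each), a log2 change of -0.27 (edgeR adjusted p = 2.13e-09). The 11 hepatocyte and hepatoma markers were all above 1 CPM, while 4 of 5 endothelial and 5 of 6 blood and immune markers were below it. Of 4 biliary markers only KRT7 was below it. KRT19, SOX9 and EPCAM had control means of 477, 174 and 143 CPM. SOX9 fell and EPCAM rose, and the biliary sums overlapped, at 788 to 805 against 792 to 811 CPM. The summed hepatocyte markers moved with the groups. They were at 7618 to 7802 CPM in the control libraries and at 8571 to 8769 CPM in the ITGB5 hairpin libraries. Of the 11, 8 rose, against 8.31% of all genes tested and 15.2% of those at 27.4 CPM or more. The summed fibroblast and stellate markers also moved with the groups, at 289.5 to 303 against 324 to 333 CPM. Of these 7, 1 was past the test and 2 were under 1 CPM. The part of either shift in the results below was not tested.

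Of the 49 genes, 48 had enough counts to be tested, 10 rose, 3 fell and 35 did not pass (edgeR quasi-likelihood test, adjusted p under 0.05 over all 16577 genes tested). The one gene left out was DERL3, a derlin of the retrotranslocation machinery, with 0 to 10 counts per library. The 13 genes past the test were 27.1% of those tested. Over all genes tested, 15.1% passed, 8.31% rising and 6.74% falling. These are abundant mRNAs, which the test reads with less error: among the 7136 genes at or above the mean level of the lowest tested member, TXNDC5, 27.2% passed. The share of ER genes that passed was near that of genes above this floor. The floor of 27.4 CPM does not match the members for level: CANX, for one, was at 1432 CPM in the control libraries. For 24 of the 48 genes every library of one group was above every library of the other, 50% against 28.5% over all genes tested and 41.8% over the abundant ones. The changes were small: the median size of the log2 change was 0.045, against 0.074 for the abundant genes, and the median itself was 0.020.

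By role, the members that passed were spread over all 6 groups. The share that passed ran from 9.09% of the degradation genes to 45.5% of the chaperones and cochaperones, all small groups. Over all genes tested it was 15.1%, and over the abundant ones 27.2%. Of 6 glycan trimming and lectin genes, 2 rose and none fell. Of 11 chaperones and cochaperones, 4 rose and 1 fell. Of 10 oxidative folding genes 2 rose, of 11 degradation genes 1 rose, of 6 stress sensors and their proteases 1 rose and 1 fell, and of 4 translocation and export genes 1 fell. One gene stood apart in size: GANAB, at a log2 change of 0.43, with ERO1A next at 0.31 and no other member beyond 0.23 in either direction.

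**Figure D1:**
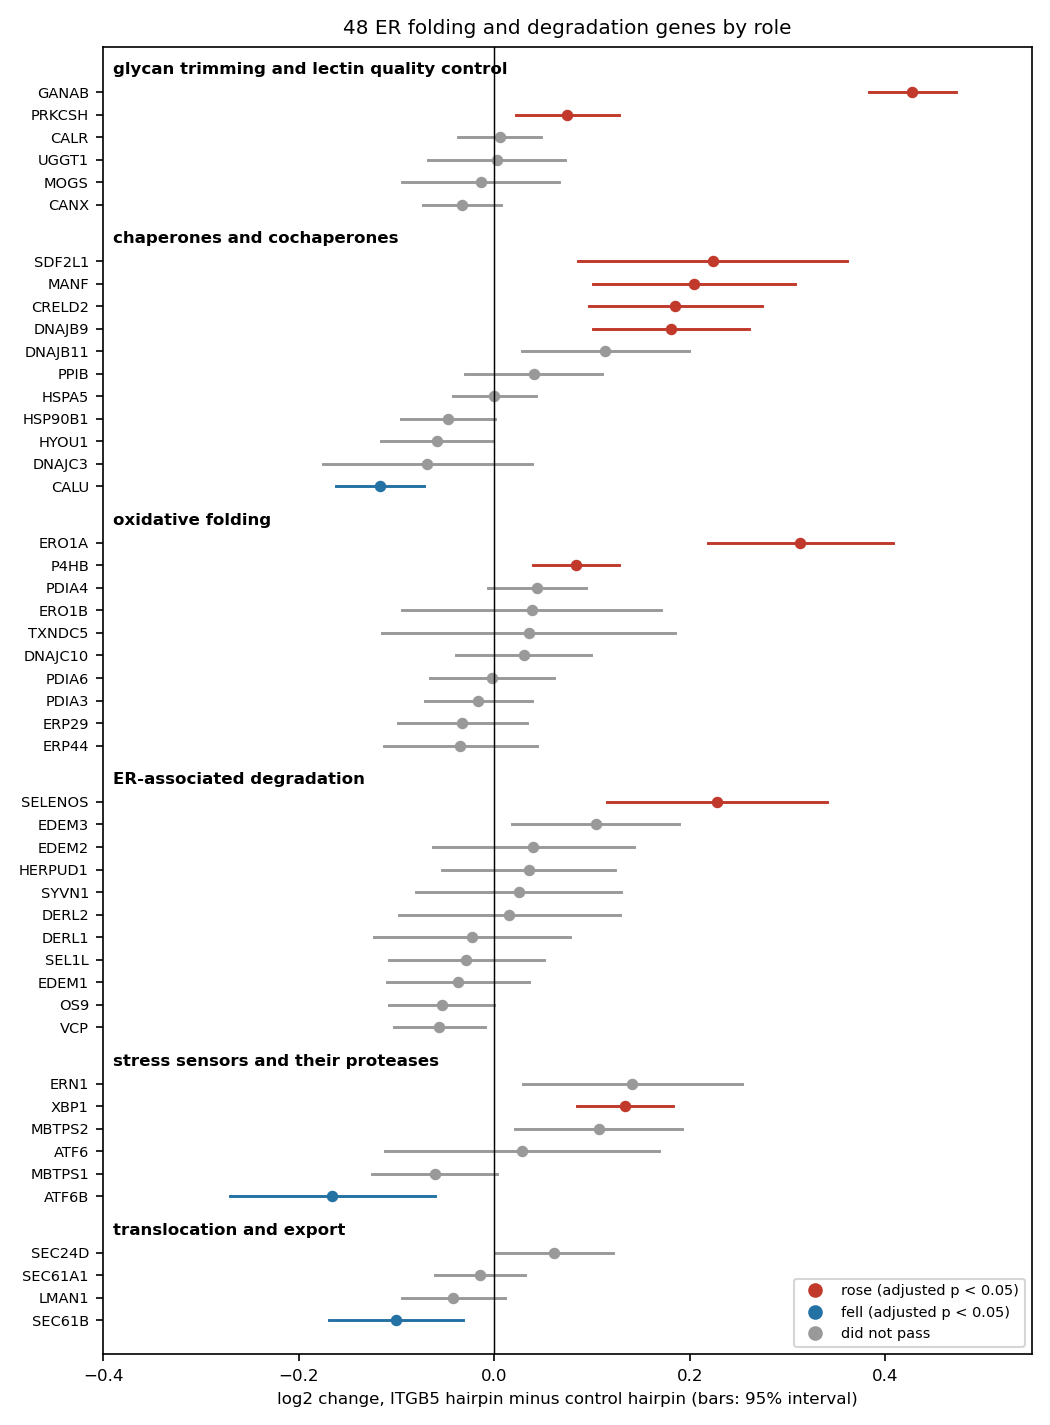
Log2 change (ITGB5 hairpin minus control hairpin) of the 48 tested genes, grouped by role, with 95% intervals as bars; red genes rose, blue genes fell and grey genes did not pass the edgeR test. GANAB at 0.43 and ERO1A at 0.31 lie furthest right, CALU and ATF6B furthest left, and most genes sit close to 0.

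GANAB encodes the catalytic alpha subunit of glucosidase II, which removes the inner glucose residues from a newly attached N-glycan. It is ENSG00000089597, on the minus strand of chromosome 11 from 62624826 to 62646726 (GRCh38). Its level was 644, 658 and 645 CPM in the control libraries and 875, 881 and 863 CPM in the ITGB5 hairpin libraries. Every ITGB5 hairpin library lay far above every control library, and the spread within each group was small. The mean rose from 649 ± 7.59 to 873 ± 9.03 CPM (SD, n = 3 each), an increase of 34.5% (95% interval 30.4% to 38.7%, edgeR adjusted p = 1.92e-23). GANAB shares no exon base with another gene that had counts, and its log2 change stayed between 0.42 and 0.44 in the 13 alternative analyses.

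The other subunit and the neighbouring steps of the glycan cycle had smaller changes. PRKCSH, the beta subunit that holds glucosidase II in the ER, was at 429, 408 and 428 CPM in the control libraries and 440.3, 456 and 436 CPM in the ITGB5 hairpin libraries, groups that lay next to each other without overlap. It rose by 5.31% (edgeR adjusted p = 0.0421), a call lost in 7 of 13 alternatives. Leaving out control library 1, 2 or 3 gave adjusted p-values of 0.0517, 0.332 and 0.0573, and leaving out ITGB5 hairpin library 1 or 2 gave 0.0625 and 0.205. Per gene length, GANAB stood at 1.54, 1.66 and 1.55 times PRKCSH in the control libraries and at 2.04, 1.99 and 2.03 times PRKCSH in the ITGB5 hairpin libraries. This ratio was one of 4 chosen after the values were seen, and its exact two-sided permutation p of 0.1 (0.133 adjusted over the 4) is the smallest that 3 against 3 libraries allow.

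MOGS, glucosidase I, which removes the outermost glucose, had a mean of 107 CPM in the control and 106 CPM in the ITGB5 hairpin libraries (log2 change -0.01, 95% interval -6.35% to 4.72%). UGGT1, which puts a glucose back on misfolded glycoproteins, was at 160.6 and 160.8 CPM (95% interval -4.60% to 5.17%). The lectin chaperones were the most abundant genes of the role. Calreticulin (CALR) was at 1194, 1188 and 1227 CPM in the control libraries and 1182, 1210.3 and 1231 CPM in the ITGB5 hairpin libraries, with overlapping groups and a 95% interval of -2.53% to 3.36%. Calnexin (CANX) was at 1432 and 1399 CPM on average; its libraries did not overlap, but its log2 change of -0.03 did not pass (edgeR adjusted p = 0.310). The intervals of these 4 genes end far below the rise seen for GANAB.

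Promoters of ER folding genes are known for ER stress elements, and the sites of these genes are printed here because the genes that carry them can be read as a group. Windows of RefSeq promoter sequence, from 250 bases before to 50 after each annotated start (GRCh38.p14), were found for 44 of the 49 members and for 27305 genes in all. MOGS, PDIA3, DERL1, DERL3 and SEC24D had no window. The ER stress element, CCAAT and CCACG spaced by 9 bases (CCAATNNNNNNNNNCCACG, either strand), was present for 25 genes (0.0916% of genes), of which 8 were members. In the runs below, written 5′ to 3′ on the gene's strand, capitals mark the element, which reads CGTGG to ATTGG where it lies on the opposite strand.
CRELD2 (chr22:49918546-49918580, plus strand): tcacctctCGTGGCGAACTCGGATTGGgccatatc
XBP1 (chr22:28800595-28800629, minus strand): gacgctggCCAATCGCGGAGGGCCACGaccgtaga
HSPA5 (chr9:125241383-125241417, minus strand): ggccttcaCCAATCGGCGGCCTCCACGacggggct
HSP90B1 (chr12:103930208-103930242, plus strand): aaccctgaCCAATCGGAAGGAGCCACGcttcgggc
HSP90B1 (chr12:103930313-103930347, plus strand): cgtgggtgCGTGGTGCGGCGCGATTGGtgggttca
CALR (chr19:12938376-12938410, plus strand): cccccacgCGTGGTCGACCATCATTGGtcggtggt
CANX (chr5:179698770-179698804, plus strand): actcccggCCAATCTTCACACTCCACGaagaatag
PDIA6 (chr2:10812845-10812879, minus strand): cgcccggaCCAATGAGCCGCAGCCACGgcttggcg
ERO1B (chr1:236282175-236282208, minus strand): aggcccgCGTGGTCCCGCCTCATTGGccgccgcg

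The second element, ERSE-II (ATTGGNCCACG, either strand), was present for 19 genes (0.0696%), of which 3 were members, and capitals mark it in the same way.
SDF2L1 (chr22:21642106-21642132, plus strand): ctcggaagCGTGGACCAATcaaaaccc
HYOU1 (chr11:119057372-119057398, minus strand): ccccgtgaCGTGGTCCAATcccaggcc
HYOU1 (chr11:119057266-119057292, minus strand): gcctgggaCGTGGTCCAATgagtacgc
HERPUD1 (chr16:56932017-56932043, plus strand): ggacgccgATTGGGCCACGttgggaga

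Of the 11 members with either element, CRELD2, XBP1 and SDF2L1 rose, none fell and 8 did not pass. Of the 33 tested members with a window that held neither, 7 rose and 3 fell. Over all tested members 27.1% passed, and over the abundant genes 27.2%, so these small counts do not set the members with an element apart. The log2 changes of the members with an element ran from 0.22 for SDF2L1 to -0.06 for HYOU1, which has 2 sites. Outside the set, 33 genes had either element and 19 were tested. Of these, 1 rose and 1 fell, where 15.1% of all genes tested passed. The one that rose was FICD, an ER enzyme that modifies the chaperone BiP, at 6.19, 4.23 and 3.74 CPM in the control and 7.96, 6.35 and 6.82 CPM in the ITGB5 hairpin libraries (log2 change 0.57, edgeR adjusted p = 0.0105). That call was lost without control library 2 (adjusted p = 0.0564), control library 3 (0.110) or ITGB5 hairpin library 1 (0.0793). The one that fell was PLS3, an actin-bundling protein, with a log2 change of -0.12 (edgeR adjusted p = 0.000322). A match is a description of the letters and not a site shown to be bound.

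**Figure D2:**
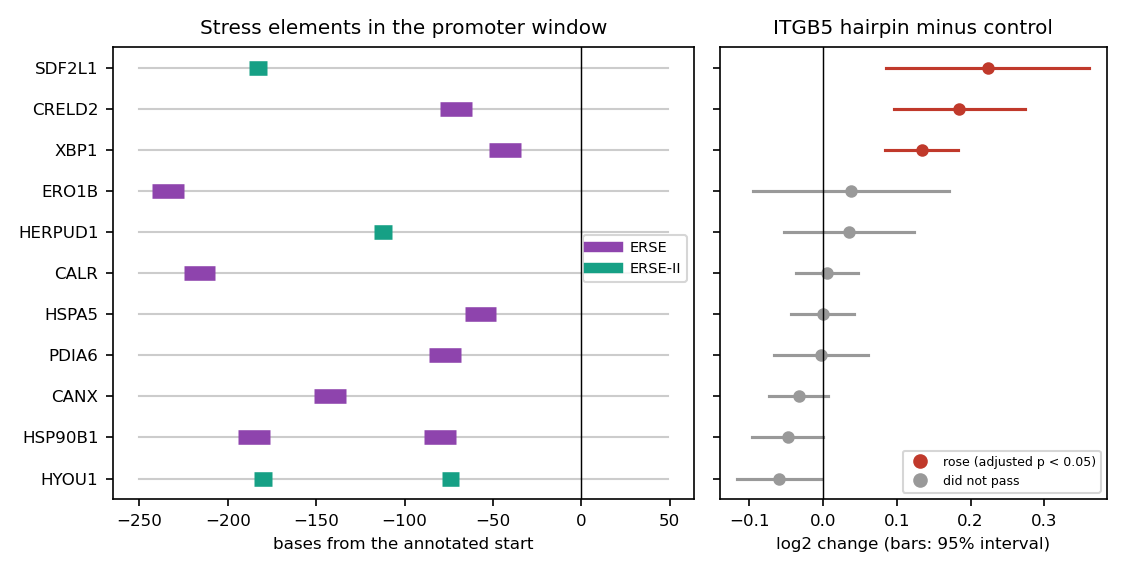
Left, position of ERSE and ERSE-II matches in the promoter windows of 11 members, in bases from the annotated start; right, the log2 change of each gene with its 95% interval. SDF2L1, CRELD2 and XBP1 (red) rose, and the other 8 genes lie on both sides of 0.

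Other stress-related letters were searched as well. The core of the unfolded protein response element, TGACGTG, was in the windows of 2.40% of genes and of 5 members (DNAJC10, HYOU1, SEC61A1, TXNDC5 and VCP), none of which passed. Of 355 other tested genes with TGACGTG, 36 rose and 35 fell, so the small member count does not set these members apart. The C/EBP-ATF element TGATGCAA, known from genes of the PERK arm, was in 1.08% of genes and in 1 member, HERPUD1. The window of GANAB, the gene with the largest change, is printed whole in lower case (chr11:62646564-62646863, minus strand); it holds none of these 4 motifs, which says only that the letters are not in this window. It does hold the short core CCACG, as do the windows of 42.1% of all genes and of 31 members, of which 7 rose and 1 fell. Over all tested members, 27.1% passed in either direction.
GANAB: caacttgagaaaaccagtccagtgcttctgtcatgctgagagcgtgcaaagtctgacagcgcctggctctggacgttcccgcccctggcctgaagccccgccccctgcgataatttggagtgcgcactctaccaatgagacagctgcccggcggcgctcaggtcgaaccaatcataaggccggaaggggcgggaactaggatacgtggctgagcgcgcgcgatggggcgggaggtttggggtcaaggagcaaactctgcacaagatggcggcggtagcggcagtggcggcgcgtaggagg

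Among the 11 chaperones and cochaperones, 4 genes rose, CALU fell, and BiP, GRP94 and GRP170 were among those that did not pass. That is 45.5% of a small group, against 15.1% of all genes tested and 27.2% of the abundant ones. HSPA5 (BiP), the central Hsp70 of the ER and the best known target of ER stress, was at 941, 938 and 951 CPM in the control libraries and 943, 935 and 953 CPM in the ITGB5 hairpin libraries. These groups overlapped fully, and the 95% interval of the log2 change ran from -0.04 to 0.04. HSP90B1 (GRP94), the ER Hsp90, and HYOU1 (GRP170), which releases nucleotide from BiP, had log2 changes of -0.05 and -0.06 that did not pass (edgeR adjusted p = 0.206 and 0.175), although their libraries did not overlap.

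Among the cochaperones and folding factors, 4 rose. DNAJB9 (ERdj4), a J protein that brings BiP to its substrates and to IRE1, was at 108, 99.1 and 103 CPM in the control and 114, 116 and 121 CPM in the ITGB5 hairpin libraries. It was higher in all 3 ITGB5 hairpin libraries than in any control library and rose by 13.3% (edgeR adjusted p = 0.000547). Set against its partner, DNAJB9 stood at 0.158, 0.146 and 0.148 times HSPA5 per gene length in the control libraries and at 0.167, 0.171 and 0.175 times in the ITGB5 hairpin libraries (exact permutation p = 0.1, 0.133 adjusted over the 4 ratios). DNAJB9 shares exon bases with PNPLA8 and THAP5 on the opposite strand, whose mean counts were 44.7% and 32.9% of its own. Neither moved with it, at log2 changes of -0.05 and -0.01.

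MANF, a secreted factor that keeps BiP bound to its substrates, was at 52.2, 53.6 and 52.9 CPM in the control and 62.5, 58.8 and 61.6 CPM in the ITGB5 hairpin libraries. It rose by 15.2% with no overlap between groups (edgeR adjusted p = 0.00287). CRELD2, a disulfide isomerase-like protein released under ER stress, was at 84.5, 75.4 and 80.6 CPM in the control and 92.3, 91.6 and 89.6 CPM in the ITGB5 hairpin libraries. All 3 ITGB5 hairpin values were the higher ones, and CRELD2 rose by 13.7% (edgeR adjusted p = 0.00156). ALG12 shares 168 exon bases with CRELD2 on the opposite strand and had 51.7% of its counts, with a log2 change of -0.04.

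SDF2L1, which works with BiP and DNAJB11 to keep proteins from aggregating, was at 30.6, 30.5 and 30.7 CPM in the control and 32.8, 37.9 and 36.5 CPM in the ITGB5 hairpin libraries. The control libraries were almost equal, and the ITGB5 hairpin libraries all lay above them, with a wider spread. SDF2L1 rose by 16.7% (edgeR adjusted p = 0.0177), but the call was lost without control library 1 (adjusted p = 0.0542), ITGB5 hairpin library 2 (0.131) or ITGB5 hairpin library 3 (0.0845). DNAJB11 (ERdj3), its soluble partner, was 8.19% higher and did not pass (edgeR adjusted p = 0.0613); without ITGB5 hairpin library 1 it did (0.0415).

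CALU (calumenin), a calcium-binding protein of the secretory pathway, went the other way. It was at 813, 812 and 795 CPM in the control libraries and 741, 729.7 and 760.3 CPM in the ITGB5 hairpin libraries, with no overlap. CALU fell by 7.78% (edgeR adjusted p = 7.62e-05), and its mean fell by 62.8 CPM, more than that of any other member. The remaining chaperones were DNAJC3 (P58IPK), a BiP cochaperone, at a log2 change of -0.07, and PPIB (cyclophilin B), a prolyl isomerase, at 0.04; neither passed.

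**Figure D3:**
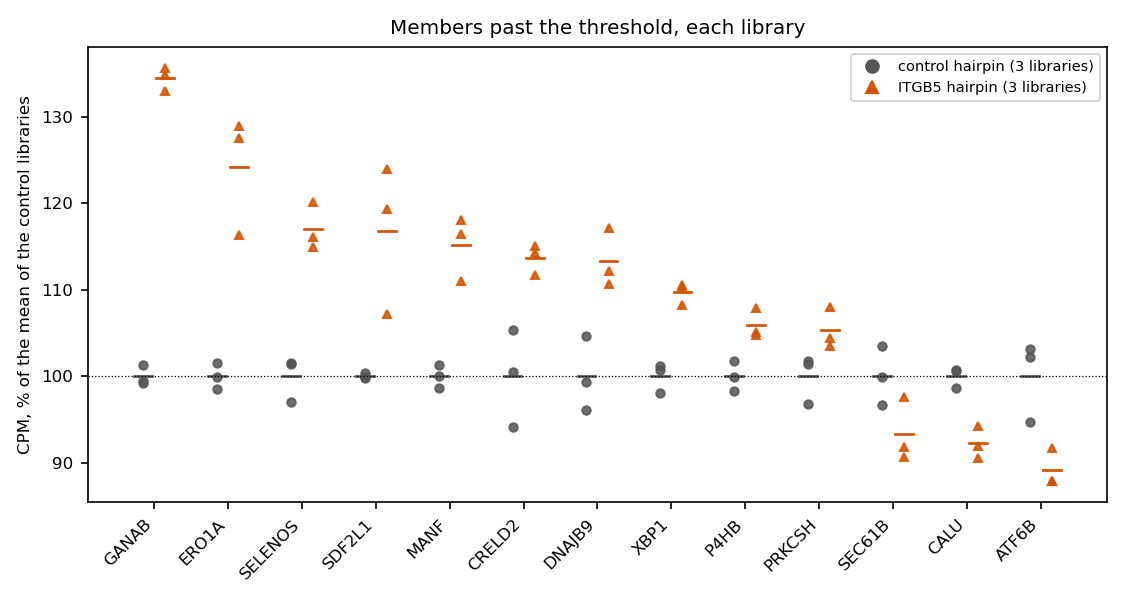
Level of the 13 genes past the test in each library, as a percentage of the mean of the control libraries (circles, control hairpin; triangles, ITGB5 hairpin; lines, group means). GANAB stands clear of the other genes. ERO1A has the next highest group mean, but its lowest ITGB5 hairpin library lies among the values of other genes. SEC61B is the gene whose groups overlap.

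In oxidative folding, an oxidase and a single disulfide isomerase rose. ERO1A, the oxidase that passes electrons from protein disulfide isomerase to oxygen, was at 66.0, 67.0 and 65.1 CPM in the control libraries and 85.1, 84.2 and 76.8 CPM in the ITGB5 hairpin libraries. ITGB5 hairpin library 3 was the lowest of its group and still above every control library. ERO1A rose by 24.2% (95% interval 16.3% to 32.6%, edgeR adjusted p = 6.14e-07). Its paralog ERO1B was at 35.4 and 36.4 CPM on average, a log2 change of 0.04 that did not pass. Per gene length, ERO1A stood at 1.30, 1.36 and 1.32 times ERO1B in the control and 1.80, 1.55 and 1.48 times in the ITGB5 hairpin libraries (exact permutation p = 0.1, 0.133 adjusted over the 4 ratios).

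P4HB (PDI), the main disulfide isomerase and the partner of ERO1A, was at 857, 843 and 873 CPM in the control and 899, 926 and 902 CPM in the ITGB5 hairpin libraries. The groups did not overlap, and P4HB rose by 5.96% (edgeR adjusted p = 0.00447), a call lost without control library 2 (adjusted p = 0.0626). The other isomerases did not pass: PDIA3, which serves calnexin and calreticulin, PDIA4 and PDIA6 had log2 changes of -0.02, 0.04 and 0.00. PDIA3 has 2 pseudogenes in the table, with 4.47% of its counts between them. ERP44, which retains ERO1 in the early secretory pathway, ERP29, TXNDC5 and DNAJC10 (ERdj5), a reductase that opens disulfides ahead of degradation, had log2 changes between -0.03 and 0.04, and none passed.

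In ER-associated degradation 1 of 11 tested genes passed (9.09%), against 15.1% of all genes tested and 27.2% of the abundant ones. The low share did not extend to the 26 other degradation genes listed below, of which 23.1% passed. SELENOS, a selenoprotein that ties the derlins to the ATPase VCP, was at 44.5, 42.6 and 44.6 CPM in the control and 50.4, 50.9 and 52.7 CPM in the ITGB5 hairpin libraries. The groups did not overlap, and SELENOS rose by 17.1% (edgeR adjusted p = 0.00226). VCP itself, the most abundant gene of the role per length, was at 669, 684 and 688 CPM in the control and 671, 647 and 645 CPM in the ITGB5 hairpin libraries. ITGB5 hairpin library 1 lay within the control range, and VCP did not pass (log2 change -0.06, edgeR adjusted p = 0.0994) except when that library was left out (0.0327).

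The ubiquitin ligase SYVN1 (HRD1) and its partner SEL1L, which form the core of the degradation complex, had log2 changes of 0.03 and -0.03, with means of 60.4 and 61.5 CPM for SYVN1 and 120.3 and 117.9 CPM for SEL1L. SYVN1 shares exon bases with FAU and MRPL49, which had 293% and 102% of its counts, so its level is uncertain. HERPUD1, which recruits the complex and is a stress target, went from 95.8 to 98.1 CPM on average, with overlapping libraries. The mannosidase-like EDEM1, EDEM2 and EDEM3, which mark glycoproteins for disposal, had log2 changes of -0.04, 0.04 and 0.10, and OS9, the lectin that reads the mark, -0.05. EDEM3 came nearest to the threshold (edgeR adjusted p = 0.0969). The derlins DERL1 and DERL2 were at log2 changes of -0.02 and 0.02, and share exon bases with TBC1D31 and MIS12 on the opposite strand, with 27.0% and 51.0% of their counts. DERL3 shares most of its exon bases with SMARCB1 on the opposite strand, whose counts far exceed its own.

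Among the stress sensors, XBP1, the factor downstream of IRE1, was at 482, 479 and 467 CPM in the control libraries and 515, 527 and 525 CPM in the ITGB5 hairpin libraries. The lowest ITGB5 hairpin library was above the highest control library, and XBP1 rose by 9.71% (edgeR adjusted p = 3.20e-05). Counts per gene do not separate spliced from unspliced XBP1 mRNA. ERN1 (IRE1) was at 47.8 ± 2.11 CPM in the control and 52.7 ± 2.10 CPM in the ITGB5 hairpin libraries, without overlap, and did not pass (log2 change 0.14, edgeR adjusted p = 0.0804).

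ATF6B, a paralog of ATF6 that is cut in the same way, was at 61.6, 57.0 and 62.1 CPM in the control and 53.0, 55.2 and 52.9 CPM in the ITGB5 hairpin libraries. The groups lay close but apart, and ATF6B fell by 10.9% (edgeR adjusted p = 0.0210). The call was lost without control library 1 (adjusted p = 0.0959), control library 3 (0.104), ITGB5 hairpin library 1 (0.0677) or ITGB5 hairpin library 3 (0.0810). ATF6, the lowest of the tested members per gene length, was at 31.3 and 31.9 CPM (log2 change 0.03). The ratio of ATF6 to ATF6B per length overlapped between groups, at 0.220 to 0.273 in the control and 0.264 to 0.278 in the ITGB5 hairpin libraries (exact permutation p = 0.2, also after adjustment over the 4 ratios). The proteases MBTPS1 and MBTPS2 had log2 changes of -0.06 and 0.11 and did not pass, with libraries that did not overlap for either.

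In translocation and export, SEC61B, the beta subunit of the Sec61 channel, was at 187, 180.1 and 174 CPM in the control and 163, 165 and 176 CPM in the ITGB5 hairpin libraries. ITGB5 hairpin library 3 was above control library 3, so the groups overlapped. SEC61B fell by 6.73% (edgeR adjusted p = 0.0345), with adjusted p-values of 0.229 and 0.0713 without control library 1 or 2 and 0.169 and 0.0891 without ITGB5 hairpin library 1 or 2. SEC61A1, the pore-forming subunit, stood at 666 and 659 CPM and did not pass. SEC24D, a cargo-binding subunit of the COPII export coat, and LMAN1 (ERGIC-53), the lectin that carries glycoproteins out of the ER, had log2 changes of 0.06 and -0.04, and neither passed.

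Levels can be compared between genes only per length, here as CPM divided by the gene's length in kilobases (FPKM). By that measure the most abundant gene of each role was CALR (443 FPKM in the control and 445 FPKM in the ITGB5 hairpin libraries), HSPA5 (241 in both), P4HB (162 and 171), XBP1 (157 and 173), SEC61B (151 and 141) and VCP (125 and 120.3). GANAB went from 129 to 174 FPKM, from below the means of P4HB and XBP1 to about the same level. ATF6 was the lowest of the tested members, at 3.97 FPKM in the control libraries. The large rise in GANAB thus came in one of the more abundant genes, and the next in size, ERO1A, in one of the less abundant, at 8.75 and 10.9 FPKM.

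**Figure D4:**
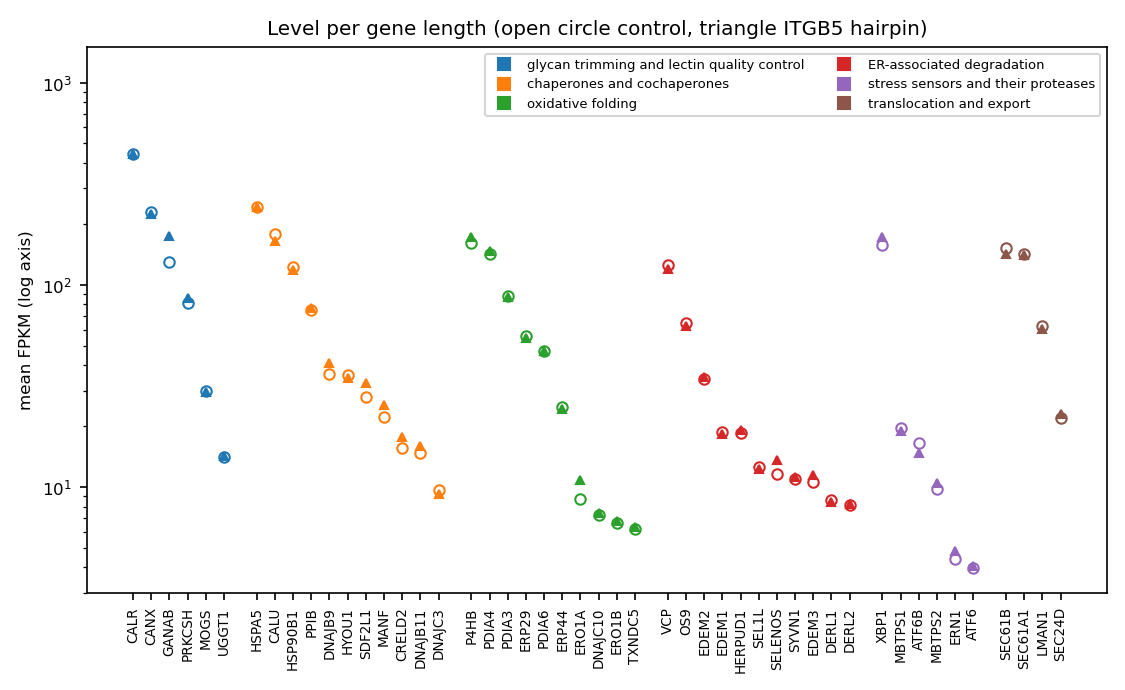
Mean level per gene length (FPKM, log axis) of the 48 tested genes, ordered by level within each role; open circles, control hairpin; triangles, ITGB5 hairpin. Levels run from 3.97 FPKM for ATF6 to over 440 FPKM for CALR, and for most genes circle and triangle coincide.

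Summed over the 48 tested genes, the level was 13681, 13728 and 13703 CPM in the control libraries and 13928, 13923 and 13991 CPM in the ITGB5 hairpin libraries. The sums did not overlap and differed by 243 CPM, or 1.78%, of which GANAB alone made up 224 CPM. The exact two-sided permutation p was 0.1, the smallest possible with 3 against 3, and 0.175 adjusted over 7 sums. The glycan trimming and lectin sum was 5.48% higher, the oxidative folding sum 3.04% and the stress sensor sum 4.83% higher, each at the same exact p of 0.1. In each of these sums 1 gene carried most or all of the difference: GANAB's 224 CPM exceeded the 218 CPM of the glycan sum, XBP1's 46.3 CPM exceeded the 43.6 CPM of the sensor sum, and P4HB made up 51.2 of the 75.1 CPM of the oxidative folding sum. The other glycan genes and the other sensor genes were together slightly lower. The chaperone, degradation and translocation sums were 1.46%, 1.49% and 1.45% lower on average, with overlapping libraries (exact permutation p = 0.2 each).

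Outside these 49 genes, 7 lists of other genes of the pathway held 123 genes, of which 122 were tested, 25 rose and 11 fell. That is 29.5%, against 15.1% of all genes tested and 27.2% of the abundant ones, a level that some genes of these lists do not reach. Of the oligosaccharyltransferase, which attaches the N-glycan, 2 of 10 tested genes rose, the small subunits OSTC and TMEM258, at log2 changes of 0.19 and 0.18 (edgeR adjusted p = 0.000169 and 0.000821). TMEM258 shares exon bases with MYRF and FEN1, which had more counts than it did, and FEN1 rose by a log2 of 0.22. Of 17 genes that build the dolichol-linked glycan, none rose and 3 fell. Among those that fell were DPM2, a subunit of the mannosyl donor synthase, at a log2 change of -0.24 (edgeR adjusted p = 0.00108), and DPAGT1, the first enzyme, at -0.15. The call for DPAGT1 (edgeR adjusted p = 0.0481) was lost without any one of the 6 libraries, at 0.0559 to 0.200. DPAGT1 shares 21.3% of its exon bases with C2CD2L on the opposite strand, which had 26.6% of its counts and a log2 change of -0.02.

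Of 24 other folding enzymes, 5 rose and 3 fell, or 33.3%, against 15.1% of all genes tested and 27.2% of the abundant ones. PRDX4, an ER peroxiredoxin that oxidizes disulfide isomerases with peroxide, was at 151, 144 and 145 CPM in the control and 201, 207 and 210.1 CPM in the ITGB5 hairpin libraries. Its groups lay far apart, and it rose by 40.4% (edgeR adjusted p = 1.37e-18). TMX3, a membrane-bound disulfide isomerase, rose by a log2 of 0.36, and SUMF1, which activates sulfatases, fell by 0.63 on the log2 scale. SUMF1 shares exon bases with LRRN1 on the opposite strand, whose log2 change was -0.07. QSOX1, another source of disulfides, fell by 12.6%, so the oxidases did not all move in the direction of ERO1A and PRDX4.

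Of 26 other degradation genes, 4 rose and 2 fell, or 23.1%, against 15.1% of all genes tested and 27.2% of the abundant ones. ERLIN2 and ERLIN1, which form a ring complex that takes activated calcium channels to degradation, rose by log2 changes of 0.39 and 0.28 (edgeR adjusted p = 4.71e-10 and 2.01e-07). ERLIN1 shares 37 exon bases with CHUK on the same strand, which had 56.5% of its counts and a log2 change of -0.13. DNAJB12, a membrane J protein, rose by 0.21, a call lost without control library 1 (adjusted p = 0.181), control library 3 (0.0592), ITGB5 hairpin library 1 (0.0593) or ITGB5 hairpin library 3 (0.104). Of 16 other translocation and signal cleavage genes, 5 rose and none fell, or 31.25%, against the same 2 shares. SEC61G, the gamma subunit of the channel whose beta subunit fell, was at 153, 144 and 142 CPM in the control and 174, 154 and 190.3 CPM in the ITGB5 hairpin libraries. Its ITGB5 hairpin libraries spread widely, and its rise of 0.24 passed in edgeR (adjusted p = 1.51e-05) but not in DESeq2 (0.0571) or limma (0.146). SEC11C, a signal peptidase subunit, and TRAM1, which aids insertion, rose by 0.18 and 0.11; the call for SEC11C was lost without control library 1 (adjusted p = 0.0647), control library 2 (0.0665), ITGB5 hairpin library 2 (0.0517) or ITGB5 hairpin library 3 (0.0532).

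Of 19 other export and retrieval genes, 4 rose and 2 fell, or 31.6%, against 15.1% of all genes tested and 27.2% of the abundant ones. SEC13, of the COPII coat, rose by a log2 of 0.25 and TMED9, a cargo receptor, by 0.16, and KDELR3, a retrieval receptor for ER proteins, fell by 0.22 on the log2 scale.

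The list named for the PERK arm holds the kinase, its regulators and downstream genes rather than folding proteins. RNA levels do not show whether PERK was active, and what moved these genes was not tested. Of its 10 genes 5 rose and 1 fell, against 15.1% of all genes tested and 27.2% of the abundant ones in either direction. The median log2 change was 0.27, which takes in DDIT3 and ASNS, whose levels are uncertain or low. TRIB3, a pseudokinase target of ATF4 and CHOP, was at 96.3, 97.6 and 92.2 CPM in the control and 143, 152 and 139 CPM in the ITGB5 hairpin libraries. ATF3, a stress-induced transcription factor, was at 49.9, 49.9 and 48.2 CPM in the control and 68.2, 64.7 and 67.1 CPM in the ITGB5 hairpin libraries. Both had groups that lay well apart and rose by 51.4% and 35.2% (edgeR adjusted p = 3.15e-19 and 1.07e-09). DDIT3 (CHOP) rose by a log2 of 0.43 (edgeR adjusted p = 0.00154). It shares exon bases with MARS and MBD6 on the opposite strand, both with many times its counts, so its level is uncertain. MBD6 also rose, by a log2 of 0.15 (edgeR adjusted p = 0.0390), while MARS, at -0.08, did not pass. SESN2 and PPP1R15A also rose and PPP1R15B fell. EIF2AK3, the gene of PERK, and ATF4 had log2 changes of 0.10 and 0.05 that did not pass (edgeR adjusted p = 0.223 and 0.145), and neither did ASNS at 0.47 (0.304), which had 17 to 46 counts per library, or CHAC1 at -0.18 (0.275).

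**Figure D5:**
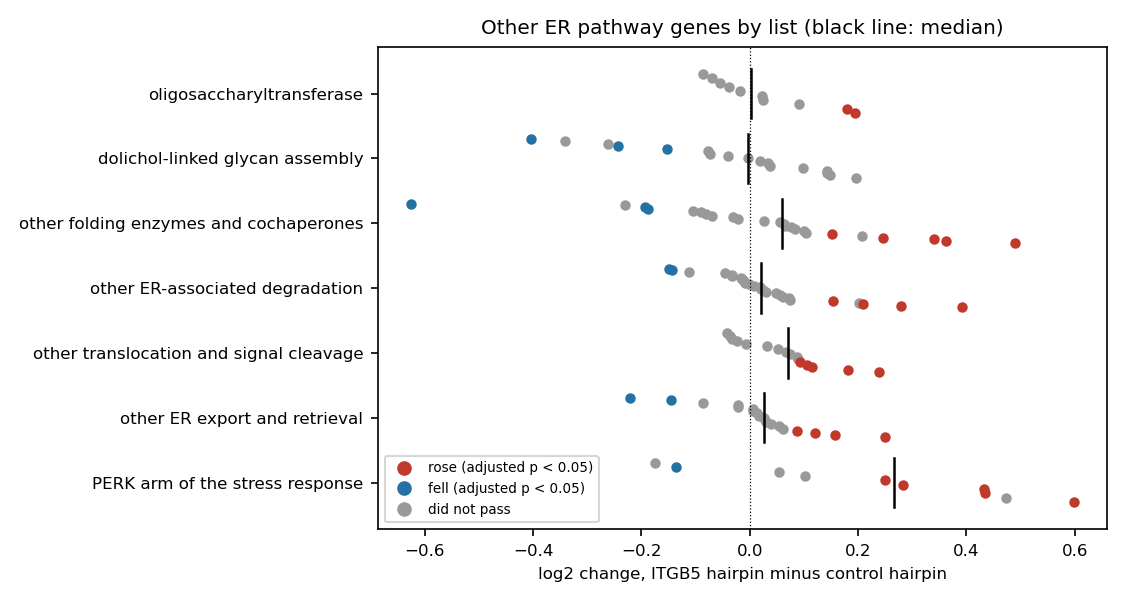
Log2 change of 122 other ER pathway genes in 7 lists, with the median of each list as a black line; red genes rose, blue genes fell and grey genes did not pass the edgeR test. The medians of 6 lists lie within 0.1 of 0, and that of the PERK arm at 0.27.

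In these libraries, genes whose 3′ UTR holds the words AGACCAA or GACCAAA were 33.0% of the protein-coding genes that fell and 9.85% of those that rose, a pattern already found in these data earlier. Of the 48 tested members, 10 (20.8%) hold either word, against 14.7% of 13179 protein-coding genes tested. Of the 3 members that fell, SEC61B holds GACCAAA and CALU and ATF6B hold neither word. None of the 10 that rose, GANAB and ERO1A among them, holds either. Most of the members with either word did not pass, 9 of the 35 in that class (25.7%). The words TCGGAGA or CGGAGAA were in 8.64% of all protein-coding genes that rose and 2.62% of those that fell; among the tested members P4HB, which rose, holds both, and no other member holds either. The UTRs differ in length, which bears on how often a word occurs: the median was 844.5 bases for the members that rose, 475 for those that fell and 1739 for those that did not pass. Because the pattern came from these same libraries, the member counts for the words are a description and not a test.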

How the data were processed

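RNA was sequenced from 6 Huh7 libraries, 3 per hairpin. The deposited table gives whole-number read counts per gene, with gene length and position; its name speaks of FPKM, but all values (100%) were whole and totals differ between libraries. Aligner, counter, strand setting and build: not given in the sources used here. Start and end of all 49 genes equal those of GENCODE 29 (GRCh38). The column codes S and NC were read as ITGB5 hairpin and negative control, which the labels do not spell out.

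Counts were tested with edgeR 4.0.16 (filterByExpr, TMM, glmQLFit and glmQLFTest, no covariate) in R 4.3.3, with Benjamini-Hochberg adjustment over 16577 genes and a threshold of 0.05; percent changes are the fitted log2 change, with its 95% interval. CPM (counts per 1000000 of the total) uses TMM-scaled totals, and FPKM was computed here from CPM and the deposited length. A count of 3, the limit that a count of 0 allows, was 0.167 to 0.190 CPM (counting error only). Libraries of a group differed by more than sampling noise (chi-square per degree of freedom 2.02 to 2.32). Same-numbered libraries did not deviate together (correlations 0.0034, -0.0544 and -0.0155 over 10561 genes), so no block was used. Sums and ratios were compared by exact permutation tests, two-sided. Each count-based fit was tested on simulated data. Alternatives were RLE factors, library totals, DESeq2 1.42.0, limma 3.58.1, no filter, a mean count of at least 50, a replicate block, and leaving out each library.

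Promoter windows are RefSeq's (GRCh38.p14); exon overlaps and 3′ UTRs are GENCODE 29's. Members, roles and lists were chosen with earlier results of these data known. Library values are given for every member past the threshold and the most abundant per length of each role, and up to 3 genes with the largest change are named per other list, except for a gene that is not reported here; QSOX1, the other PERK arm genes, FICD, PLS3 and the ratios were added after their values were seen.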

Additional observations from a re-analysis of the deposited data

How the results depend on the processing

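The count of members past the threshold was 13; it was 13 with RLE factors, DESeq2, limma and a mean count of at least 50, 12 with library totals or without a filter, and 9 to 12 on leaving out 1 library. GANAB, ERO1A, SELENOS, MANF, CRELD2, DNAJB9, XBP1 and CALU passed in all 13 alternatives (highest adjusted p 0.0491, CRELD2); PRKCSH, SDF2L1, P4HB, ATF6B and SEC61B did not. For PRKCSH, library totals gave an adjusted p of 0.0538, and for SEC61B no filter gave 0.0774. Other pathway genes past the threshold numbered 29 to 34 on leaving out 1 library, against 36, and all genes 1939 to 2183, against 2495; the log2 change of ITGB5 ran from -0.2919 to -0.2504. The replicate block left 11 members (PRKCSH 0.0810, SEC61B 0.0571), 32 other pathway genes (DPAGT1 0.0623) and 2303 genes in all; the numbers do not pair the libraries (correlations 0.0034, -0.0544 and -0.0155).

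The sign of 13 members, none past the threshold, turned in some alternative. UGGT1 was at -0.0010 with library totals and -0.0011 with a mean count of at least 50; HSPA5 was at 0.0016 in DESeq2 and 0.0070 without a filter, where PDIA6 was at 0.0045. On leaving out 1 library the log2 change ran from -0.0388 to 0.0227 for UGGT1, -0.0073 to 0.0049 for HSPA5, -0.0141 to 0.0139 for PDIA6, -0.0543 to 0.0039 for MOGS, -0.0087 to 0.0188 for CALR, -0.0112 to 0.0578 for TXNDC5, -0.0630 to 0.0093 for SEL1L, -0.0564 to 0.0482 for DERL2, -0.0200 to 0.0729 for SYVN1, -0.0129 to 0.107 for EDEM2, -0.0091 to 0.0855 for ATF6, -0.0062 to 0.0891 for ERO1B and -0.0081 to 0.0804 for HERPUD1. The cause of these shifts was not tested. With 3 libraries a group, exact tests cannot go below 0.1, and depth limits what can be said of DERL3.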
